A study of Mus musculus with 24 samples.

Results

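Satellites are repeats that lie head to tail in long arrays, and the RNA they give off was followed here through the first cleavages of mouse embryos with and without the endogenous retrovirus MERVL. The counts hold 1035 repeat types among 56326 features (genes and repeat types), and the 5 types whose RepeatMasker class is Satellite were taken: GSAT_MM, MMSAT4, SYNREP_MM, ZP3AR and IMPB_01. All 5 had counts in all 12 RNA libraries. The choice went by this class alone, but it was made with earlier results of these data known.

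Zygotes from superovulated B6D2F1 females mated with B6D2F1 males, both 8 weeks old, were injected in the male pronucleus with antisense oligonucleotides at 20 µM and cultured. Control embryos received a scrambled oligonucleotide, and MERVL-KD embryos a mix of 3 oligonucleotides against MERVL, so that injection is shared by all groups and no uninjected embryo is included. Embryos were collected at the 2-cell stage (1.5 days post coitum, dpc), the 4-cell stage and the 8-cell stage (both 2.5 dpc), 30 zona-free embryos per library and 2 libraries in each of the 6 groups. The strain label of the embryos is BDF2. Each library is thus a pool, made from total RNA primed at random and depleted of ribosomal fragments. Totals ran from 28167085 to 41482526 counts per library. With a pool as the unit, fewer cells with satellite RNA and less satellite RNA per cell cannot be told apart.

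Mouse satellites are known chiefly from the centromere region. The major (gamma) satellite, which RepBase names GSAT_MM, builds the pericentromeric blocks. These are wrapped in heterochromatin with histone H3 lysine 9 trimethylation and HP1 proteins. The kinetochore sits on the neighbouring minor satellite, and whether any of the other 4 types holds minor satellite was not tested. In mouse embryos, a burst of major satellite RNA around the 2-cell stage is a textbook feature of the reorganization of these blocks into chromocenters. The other 4 types are known here only by their RepBase names, and no function is assigned to them.

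The sequence behind GSAT_MM is shown because its repetitiveness sets what a uniquely aligned read can measure. The counts list repeat types without coordinates, so the array was looked for in the GRCm38 assembly (RefSeq) by the period of its repeat unit. Tandem repeats of this period lay on chromosomes 9 and 3 and on a scaffold. That of chromosome 9 was taken from background knowledge of the major satellite (its period, its shorter inner repeat and its richness in A and T), since no consensus was at hand. The windows on chromosome 3 matched their own next unit better, up to 99.0% against 92.1%, but chromosome 3 held 1 copy at 80% identity or more to the chromosome 9 unit. The array lay at the start of the assembled part of chromosome 9, from 3000194 to 3038226, where 161 copies followed one another on the plus strand at 80.5% to 100.0% identity to the first unit below (median 91.5%). The 2 neighbouring units printed here are chr9:3027001-3027234 and chr9:3027235-3027468, plus strand, within introns of the overlapping gene models Gm10717 and Gm26870 (0 bases in exons, GENCODE M21), and capitals in unit B mark the bases that differ from unit A.
unit A: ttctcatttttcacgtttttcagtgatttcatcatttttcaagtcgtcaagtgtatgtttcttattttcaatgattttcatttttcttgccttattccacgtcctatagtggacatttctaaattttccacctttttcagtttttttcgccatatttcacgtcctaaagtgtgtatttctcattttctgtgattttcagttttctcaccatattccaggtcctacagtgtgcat
unit B: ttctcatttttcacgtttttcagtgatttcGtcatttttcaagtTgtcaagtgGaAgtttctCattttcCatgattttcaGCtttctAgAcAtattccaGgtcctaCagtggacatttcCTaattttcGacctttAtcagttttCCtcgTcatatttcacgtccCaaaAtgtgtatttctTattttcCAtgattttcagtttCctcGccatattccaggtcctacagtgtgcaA
The pair differed at 28 bases (88.0% identity). Unit A was 67.1% A and T and held 5 CG dinucleotides, and unit B was 63.7% A and T with 6. Shifted against itself, the sequence matched best at an offset of 58 bases, where 58.1% of bases were the same. In the array, 42.3% of all windows of 150 bases occurred once among the assembled regions with copies, and the remaining windows occurred more than once. With the array, 401 copies at 80% identity or more over at least 200 bases are reported here. Those outside the array were mostly on scaffolds outside the chromosome sequences, with 217, and a few lay on chromosomes 14, 2, 12 and 3. Most copies in a mouse nucleus are not assembled. Reads were counted only where they aligned to assembled copies, and whether they came from those copies was not tested.

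Satellite RNA was a small part of every library. It took from 0.0185% (95% Wilson interval 0.0181% to 0.0190%, control 8-cell replicate 2) to 0.0465% (0.0458% to 0.0472%, MERVL-KD 2-cell replicate 1) of all counts, where the intervals cover counting error only. In 2-cell embryos the share was 0.0309% and 0.0316% in the control libraries and 0.0465% and 0.0410% in the MERVL-KD libraries, a ratio of means of 1.40. In 4-cell embryos the controls gave 0.0265% and 0.0279% and MERVL-KD gave 0.0255% and 0.0204% (ratio 0.844), and among 8-cell embryos it was 0.0274% and 0.0185% against 0.0251% and 0.0210% (ratio 1.01). By these shares the groups did not overlap at the first 2 stages and overlapped at the 8-cell stage. With TMM scaling, which is used for all levels below, the summed satellite level overlapped at the 2-cell stage too, at 329.6 and 359 CPM (scaled counts) in control against 391.9 and 353 CPM in MERVL-KD. Groups of 2 libraries separate often: 60.5%, 58.5% and 52.2% of features with a mean of at least 1 CPM did not overlap at the 2-, 4- and 8-cell stages. MERVL itself took 6.33% and 6.57% of all counts of the 2-cell controls and 0.157% and 0.143% in MERVL-KD, and its part in the difference of shares was not tested.

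The make-up of satellite RNA shifted with stage. GSAT_MM was 36.5% to 50% of the satellite counts of the 4 2-cell libraries and 6.72% to 16.5% of those of the 8 later ones. MMSAT4 was the most counted of the 5 types in 11 of the 12 libraries, from 48.9% to 79.2%, and at 39.4% was passed by GSAT_MM in MERVL-KD 2-cell replicate 1. The gene models made of major satellite are not part of these shares. Their summed counts were above those of the 5 types together in every group but MERVL-KD 8-cell embryos (7161 and 7699 against 8666 and 8718). The shares thus do not rank the major satellite against MMSAT4. SYNREP_MM took 1.73% to 6.91% in 2-cell and 17.1% to 25.8% in 4-cell libraries. IMPB_01 was at most 0.326%. These shares compare counts, not levels per length: the files give only the average length of a copy, from 279 bases for SYNREP_MM to 2038 bases for IMPB_01, and not the number of copies counted.

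**Figure D1:**
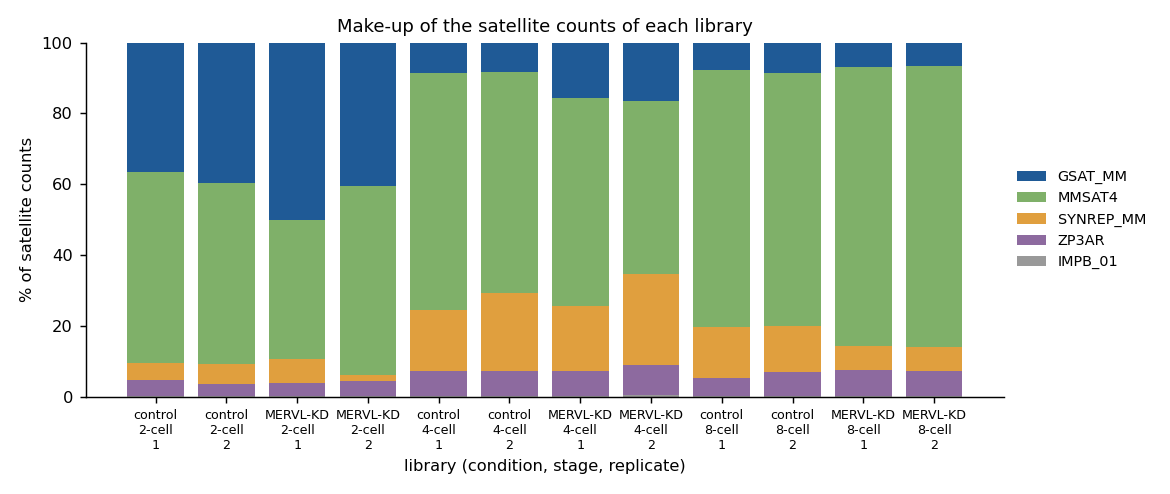
Share of each satellite type (percent of the satellite counts, vertical axis) in each of the 12 RNA libraries, as stacked bars. The GSAT_MM part at the top is 36.5% to 50% in the 4 2-cell libraries and at most 16.5% in the others.

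**Figure D2:**
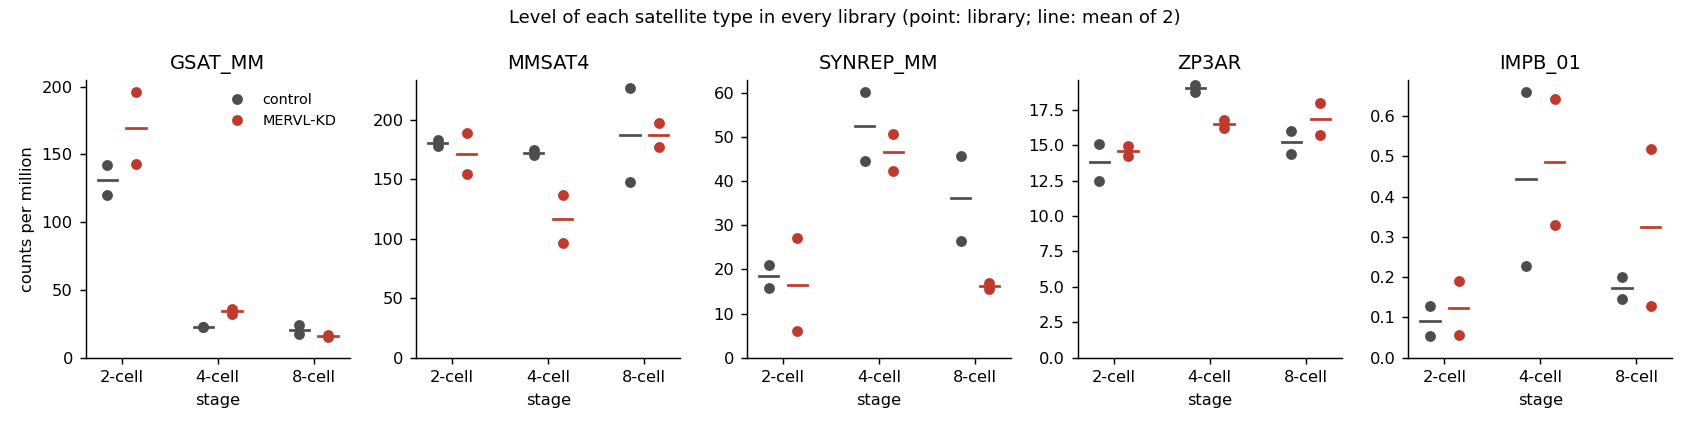
Level of each satellite type in CPM (scaled counts, vertical axis of each panel, starting at 0) by stage, with a point for each library and a line for the mean of 2, control in grey and MERVL-KD in red. GSAT_MM falls from at least 120 at the 2-cell stage to at most 36.2 later, and the 2 MERVL-KD 8-cell libraries lie below both controls for SYNREP_MM.

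The first question is how satellite RNA changes from the 2-cell to the 8-cell stage of control embryos. Levels are given below as CPM, counts scaled to a common library size after TMM normalization over the 12 libraries. Between the 2-cell and the 4-cell stage GSAT_MM fell, SYNREP_MM rose, ZP3AR was higher by less than 2-fold, which some alternatives did not keep, and MMSAT4 did not pass the test.

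GSAT_MM, the major satellite, stood at 120 and 142 CPM in the 2-cell controls, at 22.5 and 22.6 CPM in the 4-cell controls and at 24.0 and 17.7 CPM in the 8-cell controls. The 2-cell libraries were thus far above any later control, and the 4-cell values lay inside the 8-cell range. From the 2-cell to the 4-cell stage the mean fell from 131 ± 15.5 to 22.6 ± 0.109 CPM (SD, n = 2), a log2 fold change of -2.52 ± 0.14 (SE) with an edgeR Benjamini-Hochberg adjusted p of 2.01e-09. From the 4-cell to the 8-cell stage the log2 fold change was -0.11 ± 0.14 (edgeR adjusted p = 0.727).

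Over the same step the summed level of 5 oocyte and maternal markers (Gdf9, Bmp15, Zp2, Zp3 and Mos) went from 724 and 810 CPM to 90.8 and 92.2 CPM in control embryos, and that of 6 markers of the 2-cell state (among them Zscan4c and Duxf3) from 419 and 502 CPM to 99.5 and 103 CPM. All markers of both lists had counts in every library. Their part in the fall of GSAT_MM was not tested.

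SYNREP_MM went the other way. Its level was 15.9 and 20.9 CPM in the 2-cell controls, 44.6 and 60.3 CPM in the 4-cell controls and 45.8 and 26.5 CPM in the 8-cell controls. The 4-cell values were both above the 2-cell values, at a log2 fold change of 1.53 ± 0.24 (edgeR Benjamini-Hochberg adjusted p = 0.000189). The 8-cell values spread widely, one within the 4-cell range and one between the earlier stages, and the step from 4-cell to 8-cell gave -0.53 ± 0.23 on the log2 scale (edgeR adjusted p = 0.206). In a fit over all 12 libraries, whose spread takes in the MERVL-KD libraries too, the 2-cell to 4-cell rise was 1.51 with an adjusted p of 0.0896 and was no longer called, and over the alternatives of this result the adjusted p ran from 3.45e-23 to 0.0896.

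ZP3AR was steady beside these. Its control levels were 15.1 and 12.5 CPM at the 2-cell, 18.7 and 19.3 CPM at the 4-cell and 16.0 and 14.4 CPM at the 8-cell stage. The rise into the 4-cell stage was 0.49 ± 0.17 on the log2 scale (edgeR Benjamini-Hochberg adjusted p = 0.0254), under the 2-fold threshold, and the adjusted p ran from 0.00687 to 0.151 over the alternatives, with 0.151 and a value of 0.39 without control 2-cell replicate 2, 0.0633 and 0.0703 without either 4-cell control and 0.0527 with a filter of 10 counts in every library. The step to the 8-cell stage was -0.31 ± 0.17 (edgeR adjusted p = 0.311).

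MMSAT4, the most counted type, stood at 178 and 183 CPM, 174 and 170 CPM, and 227 and 148 CPM in the 2-, 4- and 8-cell controls. Its log2 fold changes were -0.04 ± 0.15 and 0.13 ± 0.15 (edgeR adjusted p = 0.819 and 0.683), and the pair of 8-cell controls lay on either side of all earlier values. IMPB_01 had 4 and 2 counts in 2-cell, 8 and 19 in 4-cell and 4 and 6 in 8-cell control libraries, too few to pass the filter of this fit.

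In all, 2 of the 4 types tested from the 2-cell to the 4-cell stage were called (adjusted p under 0.05 and at least 2-fold), GSAT_MM lower and SYNREP_MM higher, while 48.8% of all features (23% higher and 25.9% lower) and 16.6% of repeat types were called in that step. From the 4-cell to the 8-cell stage 0 of 4 were called in edgeR and DESeq2, with 1 (SYNREP_MM) at an unadjusted p under 0.05, and 1.95% of all features were called. The median log2 fold change of the 4 types was 0.22 in the first step and -0.21 in the second, beside 0.00 and -0.01 over all features tested.

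The second question is what the loss of MERVL RNA does to satellite RNA at each stage. The knockdown held in every library: MERVL-int, the internal part of the retrovirus, was at 67640 and 74731 CPM in the 2-cell controls and at 1322 and 1227 CPM in MERVL-KD, and its log2 fold change was -5.72, -5.53 and -5.40 at the 2-, 4- and 8-cell stages. MT2_Mm, its long terminal repeat, was at -2.53, -1.63 and -1.03. Fold changes below come from a fit of the 4 libraries of the stage, with scaling within the stage.

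**Figure D3:**
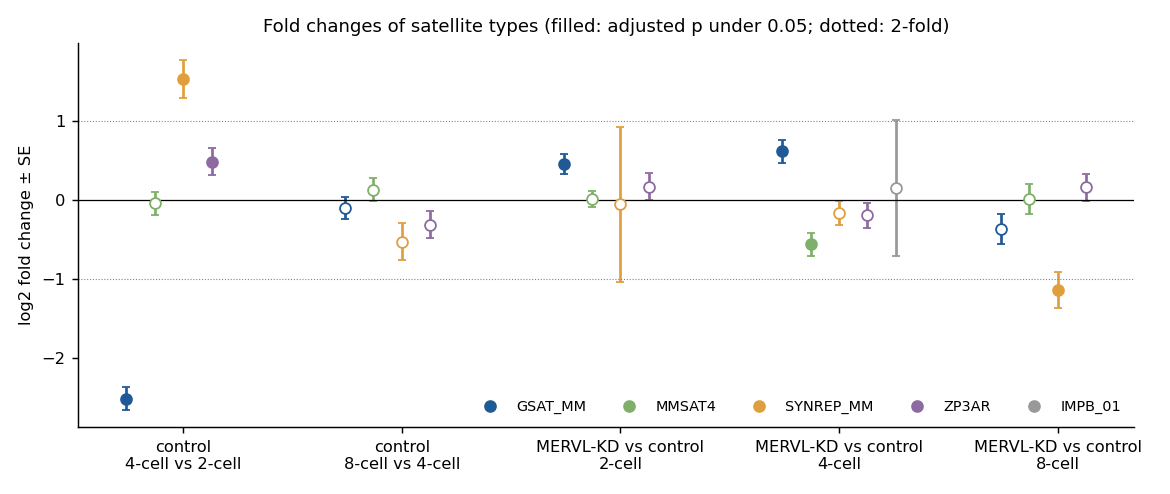
Log2 fold change (vertical axis) with its standard error for each satellite type tested, in the control stage steps and in MERVL-KD against control at each stage, with filled points for an adjusted p under 0.05 (edgeR) and dotted lines at 2-fold. GSAT_MM lies at -2.52 in the first control step and at 0.45, 0.61 and -0.37 in the knockdown comparisons, and SYNREP_MM is past the 2-fold line at the 8-cell stage.

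In 2-cell embryos GSAT_MM was higher in MERVL-KD, by less than 2-fold, and no other type passed the test. The MERVL-KD libraries were at 196 and 143 CPM and the controls at 120 and 142 CPM, so that the groups did not overlap but the lower MERVL-KD library and the higher control were almost equal. The log2 fold change was 0.45 ± 0.13 (edgeR Benjamini-Hochberg adjusted p = 0.0354). This rested on MERVL-KD replicate 1: without it the log2 fold change was 0.19 and the adjusted p 0.355, and without control replicate 1 they were 0.33 and 0.0644, within a range of adjusted p from 2.27e-07 to 0.355 over all alternatives. In the fit of all 12 libraries it was 0.37 with an adjusted p of 0.169. With library size alone as scaling, GSAT_MM was at 0.74 while the median of all features was at 0.31.

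SYNREP_MM differed so much between the 2 MERVL-KD libraries, at 27.1 and 6.10 CPM, that its comparison with the controls (15.9 and 20.9 CPM) had little precision, and the log2 fold change was -0.05 ± 0.98 (edgeR adjusted p = 0.982). One MERVL-KD library was above both controls and the other below both. Without replicate 1 of MERVL-KD the log2 fold change was -1.52 (edgeR adjusted p = 5.24e-09, the lowest of a range up to 0.993), and without replicate 2 it was 0.63. MMSAT4 was at 154 and 189 CPM in MERVL-KD and ZP3AR at 14.2 and 14.9 CPM, with log2 fold changes of 0.01 ± 0.10 and 0.17 ± 0.17 (edgeR adjusted p = 0.964 and 0.596). IMPB_01 had 8 and 2 counts and was not tested. Of the 4 types tested 0 were called by edgeR or DESeq2 (1 at an unadjusted p under 0.05, GSAT_MM), against 6.47% of all features (14% past the adjusted p alone), and their median log2 fold change was 0.09 beside 0.02 over all features.

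At the 4-cell stage GSAT_MM was again higher and MMSAT4 lower in MERVL-KD, each by less than 2-fold. GSAT_MM was at 36.2 and 32.5 CPM in MERVL-KD and at 22.5 and 22.6 CPM in control, with a gap between the groups that was wider than the spread within either. The means were 34.4 ± 2.64 and 22.6 ± 0.109 CPM (SD, n = 2), and the log2 fold change 0.61 ± 0.14 (edgeR Benjamini-Hochberg adjusted p = 0.0196). Without either control or without MERVL-KD replicate 1 the adjusted p was between 0.057 and 0.0792, within a range from 0.0024 to 0.0792 over the alternatives, while the log2 fold change stayed from 0.52 to 0.69 with any library left out. The maternal markers were at 105 and 107 CPM in these MERVL-KD libraries and at 92.2 and 90.8 CPM in the controls, and their part in the difference was not tested. At the 2-cell stage, in contrast, they were at 435 and 509 CPM in MERVL-KD and at 810 and 724 CPM in control, opposite in direction to GSAT_MM, and the 2-cell state markers at 247.5 and 298 CPM against 502 and 419 CPM. Their part in the 2-cell difference was not tested.

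MMSAT4 was at 136 and 96.2 CPM in the 4-cell MERVL-KD libraries and at 174 and 170 CPM in the controls, so both MERVL-KD libraries were below both controls but spread over 1.42-fold. The log2 fold change was -0.56 ± 0.14 (edgeR Benjamini-Hochberg adjusted p = 0.0323), -0.49 with an adjusted p of 0.0909 under library size alone and -0.57 with 0.095 in the fit of all 12 libraries, within a range of 1.81e-05 to 0.095 over the alternatives. The log2 fold change was -0.33 when MERVL-KD replicate 2 was left out and -0.84 for replicate 1.

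The other types did not pass the test at this stage. SYNREP_MM was at 42.3 and 50.7 CPM in MERVL-KD, overlapping the controls (log2 fold change -0.17 ± 0.16, edgeR adjusted p = 0.58). ZP3AR was at 16.2 and 16.8 CPM, below both controls by a small margin (-0.20 ± 0.16, edgeR adjusted p = 0.515). IMPB_01, tested only here among the stage-wise fits, had 12 and 22 counts in MERVL-KD against 8 and 19 in control (0.15 ± 0.86, edgeR adjusted p = 0.948). In all, 0 of 5 types were called by edgeR or DESeq2 (2 at an unadjusted p under 0.05), against 4.46% of all features, and 2 of 5 passed the adjusted p alone, against 10.6% of all features. The median log2 fold change of the 5 was -0.17 beside 0.01 over all features and -0.17 over repeat types.

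At the 8-cell stage SYNREP_MM was lower in MERVL-KD and was the only type called. It was at 17.0 and 15.6 CPM in MERVL-KD and at 45.8 and 26.5 CPM in control. The MERVL-KD libraries lay close together and below both controls, which differed 1.73-fold from each other. The log2 fold change was -1.14 ± 0.23 (edgeR Benjamini-Hochberg adjusted p = 0.0191). Without control replicate 1 it was -0.69 with an adjusted p of 0.0832, and in the fit of all 12 libraries it was -1.15 with an adjusted p of 0.444, where the wide spread of SYNREP_MM at the 2-cell stage enters. Over all alternatives the adjusted p ran from 4.7e-10 to 0.444.

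GSAT_MM was at 17.2 and 15 CPM in MERVL-KD and at 24.0 and 17.7 CPM in control at the 8-cell stage, so that it was on the other side of the controls from the earlier stages. That difference did not pass the test (log2 fold change -0.37 ± 0.19, edgeR adjusted p = 0.32). MMSAT4, at 197 and 177 CPM, lay between the 2 controls (0.01 ± 0.19, edgeR adjusted p = 0.992), and ZP3AR, at 18.0 and 15.7 CPM, overlapped them (0.16 ± 0.17, edgeR adjusted p = 0.697). IMPB_01 had 18 and 5 counts and was not tested. The count of 1 of 4 called stands beside 1.7% of all features (1.07% lower, and 5.13% past the adjusted p alone) and 1.62% of repeat types, and the median log2 fold change of the 4 was -0.18 beside 0.01 over all features.

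Averaged over the 3 stages, the effect of the knockdown was not past an adjusted p of 0.05 for any of the 5 types in edgeR or DESeq2, while 16.7% of all features were (6.53% higher and 10.1% lower). GSAT_MM had the smallest p, at a log2 mean effect of 0.20 ± 0.09 (edgeR Benjamini-Hochberg adjusted p = 0.155), and was the 1 type at an unadjusted p under 0.05. SYNREP_MM was at -0.49 ± 0.36, MMSAT4 at -0.21 ± 0.11, ZP3AR at 0.01 ± 0.10 and IMPB_01 at 0.49 ± 0.68. Which type passed, if any, depended on the library left out. With 1 library left out the mean effect ran from 0.12 to 0.29 for GSAT_MM, from -0.96 to -0.25 for SYNREP_MM and from -0.31 to -0.093 for MMSAT4.

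Whether the effect itself differed between stages was tested by interaction contrasts in the fit of 12 libraries. For GSAT_MM the effect at the 8-cell stage minus that at the 4-cell stage was -0.98 ± 0.23 (edgeR Benjamini-Hochberg adjusted p = 0.0539), just outside the threshold, and the adjusted p ran from 0.000366 to 0.191 over the alternatives, 0.0057 in DESeq2. The effect at the 4-cell stage minus that at the 2-cell stage was 0.24 ± 0.22 (edgeR adjusted p = 0.646). No type passed in either contrast in edgeR, against 0.64% and 4.12% of all features, and the number at an unadjusted p under 0.05 was 1 and 0. In DESeq2 the numbers passing were 1 (GSAT_MM) and 0. The effects at the 3 stages come from separate libraries, but the 2 contrasts share the 4-cell libraries.

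In order of mean level, GSAT_MM was highest in MERVL-KD and then control 2-cell embryos, followed by MERVL-KD 4-cell, control 4-cell, control 8-cell and MERVL-KD 8-cell embryos. Of these neighbours, the control 4-cell and 8-cell libraries overlapped. For SYNREP_MM the order ran from control 4-cell (52.4 ± 11.1 CPM) over MERVL-KD 4-cell (46.5 ± 5.91 CPM), control 8-cell (36.1 ± 13.6 CPM), control 2-cell (18.4 ± 3.56 CPM) and MERVL-KD 2-cell (16.6 ± 14.8 CPM) to MERVL-KD 8-cell embryos (16.3 ± 1.03 CPM; SD, n = 2 in each). In that order control 8-cell and control 2-cell were the only neighbours whose libraries did not overlap. MMSAT4 spanned only 116 ± 28.4 to 187 ± 56.0 CPM (SD, n = 2) over the 6 groups, with MERVL-KD 4-cell embryos alone below 170 CPM on average.

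The major satellite could be followed a second way, through annotated gene models that are made of it. By alignment, the 12 gene models (GENCODE) reported here have at least 50% of their exon bases in satellite copies, 70.8% to 100.0% in fact. Of these, 9 follow each other in the chromosome 9 array (Gm10722, Gm11168, Gm10721, Gm10720, Gm10719, Gm10718, Gm10717, Gm17535 and Gm10715). Gm10801 and Gm10800 lie on chromosome 2 and Gm21738 on chromosome 14. This list was made after the values of GSAT_MM were seen. Reads could be split among these models of similar sequence, so each one is uncertain by itself, and whether a read was counted for both a gene model and GSAT_MM is not given in the sources used here.

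**Figure D4:**
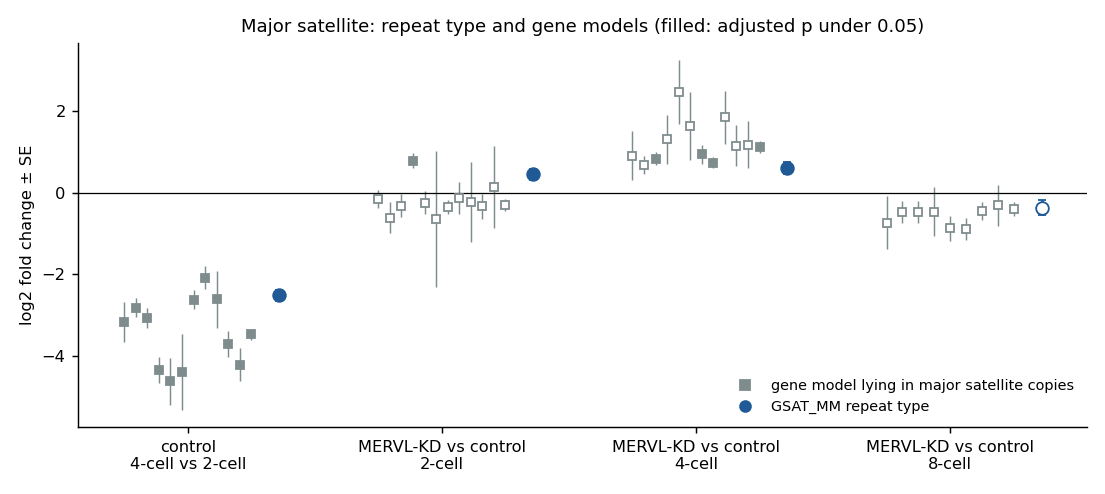
Log2 fold change with its standard error (vertical axis) of the 12 gene models that lie in major satellite copies (grey squares, 9 tested at the 8-cell stage) and of GSAT_MM (blue circle) in the control step from the 2-cell to the 4-cell stage and in MERVL-KD against control at each stage, with filled symbols for an edgeR adjusted p under 0.05. All 12 models fall in the control step, all 12 are above 0 in 4-cell MERVL-KD embryos, and the 9 tested are below 0 at the 8-cell stage.

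In control embryos the gene models fell with GSAT_MM. Their summed level was 1902 and 1997 CPM in 2-cell, 372 and 306 CPM in 4-cell and 404 and 260 CPM in 8-cell embryos, and all 12 were called lower from the 2-cell to the 4-cell stage (median log2 fold change -3.33, from -4.63 to -2.08; 10 or 11 called with any control library left out), where 25.9% of all features were called lower. Gm10800 (chr2:98666547-98667301, minus strand) was the most counted, at 1002 and 1068 CPM in 2-cell and 268 and 212 CPM in 4-cell controls. Gm21738 (chr14:19415857-19418930, minus strand) went from 407 and 497 CPM to 42.9 and 36.6 CPM.

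In 4-cell MERVL-KD embryos all 12 models had a higher mean than in the controls under each scaling tried, with a median log2 fold change of 1.14, and 1 was called. That was Gm21738, at 98.7 and 74.8 CPM in MERVL-KD against 42.9 and 36.6 CPM in control (1.13 ± 0.15, edgeR Benjamini-Hochberg adjusted p = 0.000633). Gm10722 (chr9:3000922-3002330, plus strand), at 10.0 and 8.96 CPM against 5.07 and 4.83 CPM, was at 0.94 ± 0.24 (edgeR adjusted p = 0.0265) and with Gm10800 and Gm10718 passed the adjusted p without reaching 2-fold. At this stage 4.46% of all features were called, 2.58% of all features were called higher, and 10.6% passed the adjusted p alone. The models share sequence, so their common direction does not make 12 separate observations. Replicate 1 of MERVL-KD was the higher for 11 of the 12 models, and Gm10801, for one, was at 119 and 38.4 CPM. Without that library 11 of 12 were above 0, the median was 0.75 and 0 were called, and without replicate 2 the number called was 6. Without control replicate 1 or 2 the number called was 2.

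At the 2-cell stage the models did not share the direction of GSAT_MM: 10 of 12 were below 0 (median -0.27, 0 called in edgeR and DESeq2), and 6 of 12 under library size alone, where all features shifted by 0.31. Of all features, 6.47% were called and 14% passed the adjusted p alone. Gm10719, at 19.3 and 28.5 CPM against 15.6 and 13.8 CPM, was the 1 model past the adjusted p (0.78 ± 0.18, edgeR adjusted p = 0.00902). MERVL-KD replicate 2 was the lower library for most: the summed level was 1928 CPM in replicate 1 and 1269 CPM in replicate 2. Without replicate 1 of MERVL-KD, 3 models were called. At the 8-cell stage the 9 models tested were all below 0 (median -0.47) and 0 were called by edgeR or DESeq2, where edgeR called 1.7% of all features. The summed levels were 207 and 197 CPM in MERVL-KD against 404 and 260 CPM in control. Without control replicate 1, 4 of 11 were above 0 and the median was -0.08. Without control replicate 2 the number called was 2, and for MERVL-KD replicate 1 left out 1 was called.

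The interaction contrasts of the gene models passed for 2 of 12 in each case, Gm21738 and Gm10722, beside 4.12% and 0.64% of all features. The knockdown effect rose from the 2-cell to the 4-cell stage by 1.52 ± 0.29 and 1.38 ± 0.35 on the log2 scale (edgeR Benjamini-Hochberg adjusted p = 0.0153 and 0.026) and then fell by 1.53 and 1.81 to the 8-cell stage (edgeR adjusted p = 0.0499 and 0.0232). In all 12 models the first contrast was positive and the second negative. Since both contrasts take in the 4-cell libraries, the second is not independent of the first.

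Genes whose products package or bind satellite DNA were counted from 2 lists, 35 genes of heterochromatin and 32 of the centromere and kinetochore. In the heterochromatin list 0 genes were called at any of the 3 stages in MERVL-KD against control by edgeR or DESeq2, with 2, 2 and 0 higher and 8, 6 and 4 lower of 35 at an adjusted p under 0.05 in edgeR, where 14%, 10.6% and 5.13% of all features passed in either direction. The median log2 fold change was -0.20, -0.16 and -0.10, beside 0.02, 0.01 and 0.01 over all features. With library size alone as scaling, the median was 0.09 at the 2-cell stage, still below the 0.31 of all features, and at the 8-cell stage it was 0.02 beside 0.14. Suv39h1 and Suv39h2, the methyltransferases that write trimethylation of H3 lysine 9 on satellite chromatin, were at 0.03 ± 0.11 and -0.08 ± 0.10 in 2-cell, 0.31 ± 0.16 and 0.06 ± 0.18 in 4-cell and -0.02 ± 0.17 and 0.27 ± 0.18 in 8-cell embryos (edgeR adjusted p from 0.257 to 0.965). Cbx5, the HP1 alpha protein that reads this mark, was at -0.20, -0.16 and -0.10, with edgeR adjusted p from 0.181 to 0.618.

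Both methyltransferase genes fell in control embryos over the step in which GSAT_MM fell. Suv39h1 went from 42.4 ± 1.20 to 17.0 ± 0.0169 CPM and Suv39h2 from 83.8 ± 1.32 to 15.8 ± 1.66 CPM (SD, n = 2), at log2 fold changes of -1.30 and -2.38 (edgeR Benjamini-Hochberg adjusted p = 2.13e-06 and 1.29e-09). Cbx5 rose from 92.1 ± 3.25 to 162 ± 6.74 CPM, under 2-fold. Of the 35 heterochromatin genes, 7 were called higher and 6 lower in this step, beside 23% and 25.9% of all features. The relation of these genes to the fall of GSAT_MM was not tested.

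In the centromere list 4 genes were called lower in 2-cell, 1 in 4-cell and 0 in 8-cell MERVL-KD embryos, beside 2.22%, 1.87% and 1.07% of all features, and 0 were called higher at these stages. DESeq2 called 4, 1 and 1, and library size alone called 1 at the 2-cell stage. In the same 2-cell libraries the maternal and 2-cell state markers were lower in MERVL-KD too, as given above, and their part in the list was not tested. The 4 were Cenpt, of the inner kinetochore network, at 11.4 ± 0.157 against 32.7 ± 3.54 CPM (log2 fold change -1.44 ± 0.15, edgeR Benjamini-Hochberg adjusted p = 8.29e-06), Cenpb, which binds a box in the minor satellite, at 1.75 ± 0.799 against 4.27 ± 0.413 CPM (-1.21 ± 0.34), Cenpp at 5.86 ± 0.0991 against 13.1 ± 0.455 CPM (-1.08 ± 0.19) and Sgo2a, a protector of centromeric cohesion, at 24.7 ± 3.70 against 53.2 ± 1.69 CPM (-1.02 ± 0.13; SD, n = 2 for each level). Cenpp was also the gene called at the 4-cell stage (-1.14 ± 0.20). In 2-cell embryos 19 of 32 were lower and 0 higher at an adjusted p under 0.05, where 14% of all features passed in either direction, and the list median was -0.40, or -0.11 with library size alone, beside 0.31 over all features. Cenpa, the histone H3 variant of the centromere, was among the 19, at 72.4 ± 2.89 against 118 ± 4.15 CPM (-0.62 ± 0.09, edgeR adjusted p = 0.000332). The medians at the 4- and 8-cell stages were -0.19 and -0.07, and the last of these was 0.06 with library size alone, beside 0.14 over all features.

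Averaged over stages, 16 centromere genes and 15 heterochromatin genes were lower and 0 and 2 higher at an adjusted p under 0.05, beside 10.1% lower and 6.53% higher over all features. With library size alone the heterochromatin median turned from -0.16 to 0.04, beside 0.21 over all features, and the centromere median went from -0.25 to -0.06. The 2 higher ones were Kmt5b and Kmt5c, which write H4 lysine 20 methylation on pericentric chromatin (0.50 ± 0.07 and 0.58 ± 0.18). The lower heterochromatin genes were Cbx5, Setdb1, Trim28, Atrx, Daxx, H3f3a, H3f3b, Hells, Cdca7, Zbtb24, Chaf1a, Ezh2, Bend3, Kdm4a and Lrwd1, of which Kdm4a, an H3 lysine 9 demethylase, was at -0.63 ± 0.07 and Hells, a remodeller needed for satellite methylation, at -0.55 ± 0.06. Among the lower centromere genes were Cenpa, Cenpe, Cenpi, Cenpp, Cenpt, Hjurp, Oip5, Mis12, Ndc80, Knl1, Bub1, Incenp, Birc5, Cdca8 and Sgo2a, with Cenpp at -1.10 ± 0.11. The effect was less negative at the 4-cell than at the 2-cell stage, by the interaction test, for Cenpa, Cenpt, Hjurp and Sgo2a, and the contrast also passed for Cenpf (0.71) and Cbx1 (1.64). From the 4-cell to the 8-cell stage it passed for Cenpe (0.74).

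Across the 12 libraries the 4 types that were tested at every stage did not move as a block. Pearson correlations of their log2 CPM ran from -0.65, between GSAT_MM and ZP3AR, to 0.46, between SYNREP_MM and ZP3AR, with 0.03 between GSAT_MM and MMSAT4. These are descriptions over 12 libraries that share stage and treatment. Among 7949 features with a mean of at least 10 CPM, those most like GSAT_MM were Fzd7 (a Wnt receptor), Nanos1 (an RNA-binding protein) and Phactr4, each at r = 0.99. SYNREP_MM was most like Nfrkb, Ppp1r15b and Ddx28 (r from 0.87 to 0.90). MMSAT4 was most like the zinc finger gene Zfp978 (r = 0.95), with Ankrd13a also among its closest (0.84), and ZP3AR was most like the repeat types ID, RLTR20B3 and ORR1D2 (0.94, 0.94 and 0.92).

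Markers of other cells were at low levels. The summed level of 6 cumulus and granulosa markers was 2.30 to 6.55 CPM per library, with up to 4 of the 6 at 0. That of 3 sperm markers was 0.139 to 1.40 CPM and that of 3 blood markers 0.539 to 8.14 CPM, each with up to 2 of the 3 at 0. Some moved with the knockdown comparisons of GSAT_MM: in 4-cell embryos blood markers were at 3.68 and 8.14 CPM in MERVL-KD against 0.539 and 1.56 CPM in control and sperm markers at 0.823 and 0.438 against 0.170 and 0.139 CPM, and in 2-cell embryos cumulus markers were at 6.55 and 5.37 against 3.47 and 3.91 CPM and blood markers at 2.75 and 2.77 against 1.72 and 1.13 CPM. In both 2-cell MERVL-KD libraries and in control replicate 2, 2 of the 3 blood markers were at 0, so 1 gene gave those levels. The part of these markers in the results was not tested. The 6 markers of later blastomeres summed to at most 102 CPM in 2-cell and at least 293 CPM in later libraries. They were lower in MERVL-KD both in 8-cell embryos (402 and 447 against 573 and 523 CPM), where SYNREP_MM was lower, and in 4-cell embryos (293 and 329.9 against 388 and 364 CPM), where SYNREP_MM overlapped the controls. Their part in the difference of SYNREP_MM was not tested.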

How the data were processed

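Paired-end total RNA-seq reads were aligned by the authors with STAR 2.5.3a to GRCm38, keeping unique alignments, and counted with featureCounts per GENCODE M25 gene and RepeatMasker repeat type. The files the authors deposited hold those counts as they came from the counter, not normalized, beside each feature length in bases. Depth was 28167085 to 41482526 counts per library. Among gene rows, 71.8% to 74.7% of counts from 1 to 50 were even, so both mates were mostly counted there. Of the 12 counts of each satellite type, 5 were even for MMSAT4, ZP3AR and GSAT_MM, 7 for SYNREP_MM and 10 for IMPB_01. The strand setting is not given in the sources used here. ATAC-seq libraries were not analysed here.

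From the counts, fold changes were fitted with edgeR 4.0.16 (filterByExpr, TMM, robust quasi-likelihood) in R 4.3.3 over all genes and repeat types, per stage, over the 6 control libraries for stage steps and over all 12 libraries for mean effects and interactions. The standard error is the log2 fold change over the root of F. P-values were adjusted by Benjamini-Hochberg over all features tested, and a call asks for a value below 0.05 and a change of 2-fold or more (the adjusted p alone for mean effects and interactions). With 2 libraries a group, p-values measure the spread between pools. CPM used TMM over the 12 libraries, so their ratios differ slightly from fitted fold changes. The test was checked on simulated counts.

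Satellite copies were found with the tandem unit and BLAST+ 2.17.0 in GRCm38 (RefSeq). Of the gene rows found in GENCODE M21, 99.2% have the same span there, and its exons were used. Likeness between features is Pearson r of log2(CPM + 0.5). Alternatives were DESeq2 1.42.0, other scalings, filters, the replicate block, halved counts, a non-robust fit, 1 fit of 12 libraries, no fold threshold and each library left out. Named are all satellite types, MERVL-int, MT2_Mm, list genes called in MERVL-KD comparisons, Suv39h1, Suv39h2, Cbx5, Cenpa and Cenpb, and the 3 features most like each type, except items that are not reported here. The satellite types and lists were chosen with earlier results of these data known.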

Additional observations from a re-analysis of the deposited data

Results flagged for a closer look

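The effect of MERVL-KD differed between stages, by the interaction test, for 2 of the 12 gene models that lie in major satellite copies, and for 0 of the 5 satellite types, where 4.12% and 0.64% of all features passed in the 2 contrasts. Gm21738 had an effect at the 4-cell stage minus that at the 2-cell stage of 1.52 on the log2 scale and one at the 8-cell stage minus that at the 4-cell stage of -1.53 (edgeR Benjamini-Hochberg adjusted p = 0.0153 and 0.0499). Gm10722 gave 1.38 and -1.81 (edgeR adjusted p = 0.026 and 0.0232). Both models consist largely of satellite copies, and their reads may be split with the other models.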

How the results depend on the processing

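The numbers of satellite types called (0, 0 and 1 in 2-, 4- and 8-cell MERVL-KD embryos) became 1 and 2 without the fold threshold at the first 2 stages, and 0 at the 8-cell stage in 1 fit of 12 libraries. The latter also called 1 in place of 2 types from control 2-cell to 4-cell. For the mean over stages library size alone and a filter of 1 count called 1. For the 8-cell minus 4-cell contrast DESeq2, its size factors, filters of 1 count or 10 counts in every library, halved counts and the replicate block each called 1 (GSAT_MM). Leaving out a library gave 0 to 1 called in 2-cell and in 8-cell embryos, for the mean over stages and for the 8-cell minus 4-cell contrast. The satellite share at the 2-cell stage was 2.12 times that of control when taken of repeat counts. Repeat counts themselves took 23.6% and 25.2% of all counts in the 2-cell controls and 16.5% and 15.8% in MERVL-KD. MERVL-int took 6.33% and 6.57% against 0.157% and 0.143%, and its part in this ratio was not tested.

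Heterochromatin genes called at the 2-cell stage were 1 by library size alone and 10 without the fold threshold, then 8 and 4 at the later stages, and 0 to 1 with a library left out at the 4-cell stage. Centromere genes were 1 by library size alone at the 2-cell stage, 19, 8 and 3 without the fold threshold, 1 at the 8-cell stage by DESeq2, the replicate block and the fit of 12 libraries, and 0 to 1 there with a library left out. Gene models in satellite copies, whose alternatives were chosen after seeing the data, numbered 1 by library size alone and 1 without the fold threshold in 2-cell embryos, and in 4-cell embryos 2 by library size alone, a non-robust fit or 12 libraries and 4 without the fold threshold. With a library left out they ranged from 0 to 3, 0 to 6 and 0 to 2 at the 3 stages.

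Small log2 fold changes changed sign. At the 2-cell stage SYNREP_MM gave 0.24 by library size alone (-1.52 to 0.63 with a library left out) and MMSAT4 -0.0013 by DESeq2, -0.0012 with its size factors and -0.073 in 12 libraries (-0.15 to 0.13). Leaving out a library gave -0.37 to 0.056 for SYNREP_MM and -0.44 to 1.08 for IMPB_01 at the 4-cell stage. MMSAT4 at the 8-cell stage was -0.0017 in 12 libraries (-0.27 to 0.35). ZP3AR averaged over stages was -0.018 by DESeq2 and with its size factors (-0.032 to 0.049). In control embryos MMSAT4 was 0.10 by library size alone and 0.023 with scaling from genes alone in the first step (-0.072 to 0.0050) and -0.087 by library size alone in the second (-0.24 to 0.38), where GSAT_MM ranged from -0.37 to 0.076. For the 4-cell minus 2-cell contrast SYNREP_MM was 0.066 with the replicate block (-0.74 to 1.42 with a library left out), GSAT_MM -0.066 by library size alone and IMPB_01 -0.98 to 0.77, and for 8-cell minus 4-cell IMPB_01 ranged from -0.56 to 1.44. The causes were not tested.

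The deviations of same-numbered libraries correlated at -0.06, 0.01 and 0.03 at the 3 stages, so no large shared replicate effect was seen. Whether same-numbered pools were made together cannot be told from this. Besides the counts above, the replicate block left the 2-cell, 4-cell and 8-cell calls of satellite types at 0, 0 and 1. Of all features, 1382 were called at the 2-cell stage and 918 in 1 fit of 12 libraries, 325 at the 8-cell stage and 510 with a filter of 1 count (509 and 541 without either MERVL-KD library), 427 from control 4-cell to 8-cell and 721 by library size alone or 657 with a filter of 1 count, 1025 for the 4-cell minus 2-cell contrast and 1743 by DESeq2 or 1618 by library size alone (down to 535 with a library left out), and 159 for the 8-cell minus 4-cell contrast and 501 by DESeq2 or 469 with a filter of 1 count (102 to 285 with a library left out). Library size alone moved the share of calls that were higher from 65.8% to 85.3% in 2-cell, from 37.2% to 55.1% in 8-cell and from 39.2% to 78.6% over all MERVL-KD embryos. Precision is limited by 2 pools a group, and for IMPB_01 by 2 to 22 counts a library.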

Other observations

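MurSatRep1, a repeat type named for a murine satellite whose RepeatMasker class is Unknown, lies outside the 5 types. Its control level was 120 ± 9.01 CPM at the 2-cell, 205 ± 3.41 CPM at the 4-cell and 240 ± 7.25 CPM at the 8-cell stage (SD, n = 2), and its MERVL-KD level 104 ± 16.1, 173 ± 7.04 and 208 ± 5.90 CPM, lower on average at each stage, with overlapping libraries at the 2-cell stage alone. Averaged over stages its log2 fold change in MERVL-KD was -0.22 ± 0.06 (SE, edgeR Benjamini-Hochberg adjusted p = 0.0163). In that mean effect 10.1% of all features were lower at an adjusted p under 0.05. Of features with a mean of at least 1 CPM, 58.5% and 52.2% did not overlap at the 4- and 8-cell stages. Library size alone moved the median mean effect of all features from 0.02 to 0.21, and MurSatRep1 was not examined under that scaling. It was named after its values were seen.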
